A study of Homo sapiens with 14 samples.

Results

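The genes described are 40 members of the DNA replication machinery, together with the E2F factors that drive their transcription, out of 58825 genes in the count tables. The list is defined by name and role, and it was drawn up with earlier results of these data known. The list holds 11 genes that license replication origins (MCM2 to MCM7, CDC6, CDT1, ORC1, ORC6 and GMNN) and 13 genes of the active fork (CDC45, GINS1 to GINS4, MCM10, PCNA, RFC2 to RFC5, CLSPN and TIMELESS). It further holds 10 genes of DNA polymerases and strand joining (POLA1, POLA2, PRIM1, PRIM2, POLD1, POLD3, POLE, POLE2, FEN1 and LIG1), the 2 chromatin assembly genes CHAF1A and CHAF1B, the 3 factors E2F1, E2F2 and E2F8, and the protease gene FAM111B. All 40 were found in the tables, and all 40 passed the filter on low counts in each of the 4 comparisons of GSK-J4 with GSK-J5.

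RNA was sequenced from OVCAR-3, CAOV3 and SKOV3, 3 established lines of human ovarian cancer cells, kept in culture with 2.5 µM of GSK-J4 or of GSK-J5. GSK-J4 enters cells and blocks KDM6A and KDM6B, enzymes that take methyl groups off lysine 27 of histone H3, and its isomer GSK-J5 serves as the inactive control compound. OVCAR-3 was sampled at 48 h (2 libraries per compound) and at 72 h (3 per compound), and CAOV3 and SKOV3 were sampled at 72 h (3 per compound in each line), which gives 22 libraries. No untreated library was analysed here, so each effect is that of GSK-J4 over the control compound. For replicates 1 and 2 the labels name stripped media during treatment and one RNA extraction kit. For replicate 3, present at 72 h only, they name media with serum, another kit and polyA enrichment, do not mention stripped media, and give the treatment time as a range in the protocol. Each set holds both compounds in equal number, and the sets differ in all these steps together, so the steps cannot be told apart. The OVCAR-3 library of GSK-J4 taken as replicate 3 carries a shortened column name (73 for time and replicate), and results are given with and without it.

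Origins are licensed in each cycle before DNA synthesis starts. ORC and CDC6 sit on the origin and, with CDT1, load rings of MCM2 to MCM7, which geminin (GMNN) later blocks from being loaded again. At the start of S phase CDC45 and the GINS complex join the rings to make the active helicase, MCM10 helps to start it, and RFC loads the sliding clamp PCNA that holds the polymerases on the template. E2F1 and E2F2 activate many of these genes near the start of S phase, and E2F8 is a repressor of the same family that is itself made in S phase. In a dividing culture their RNA follows the share of cells that are cycling, and in bulk samples fewer cells of a kind and less RNA per cell cannot be told apart.

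The promoters are shown because E2F factors bind a short sequence close to the start of many replication genes. For this, 4 spellings were searched on both strands, TTTCCCGC, TTTCGCGC, TTTGGCGC and the one read as GCGGCAAA on the other strand, in the 250 bases before the start given by RefSeq on GRCh38.p14. Of the 40 genes, 34 had an entry, and 13 of those 34 (38.2%) held at least 1 match. Among all protein-coding genes with an entry, 589 of 15843 promoters did (3.72%). The next 6 lines give 100 bases each of promoters from 4 of the role groups, 5′ to 3′ on the gene's own strand, with the matches in capitals.
MCM3, chr6:52284817-52284916 (minus strand), bases 174 to 75 before the start: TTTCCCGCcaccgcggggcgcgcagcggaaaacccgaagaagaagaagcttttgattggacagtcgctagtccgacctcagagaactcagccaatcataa
MCM6, chr2:135876496-135876595 (minus strand), bases 152 to 53 before the start: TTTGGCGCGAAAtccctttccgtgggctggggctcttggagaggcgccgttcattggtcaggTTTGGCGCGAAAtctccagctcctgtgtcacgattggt
GINS2, chr16:85688955-85689054 (minus strand), bases 100 to 1 before the start: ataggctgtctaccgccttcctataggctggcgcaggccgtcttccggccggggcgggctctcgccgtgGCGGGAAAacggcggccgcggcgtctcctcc
PCNA, chr20:5126623-5126722 (minus strand), bases 100 to 1 before the start: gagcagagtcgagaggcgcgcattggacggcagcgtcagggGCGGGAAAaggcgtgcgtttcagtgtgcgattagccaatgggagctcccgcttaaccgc
POLA1, chrX:24693781-24693880 (plus strand), bases 137 to 38 before the start: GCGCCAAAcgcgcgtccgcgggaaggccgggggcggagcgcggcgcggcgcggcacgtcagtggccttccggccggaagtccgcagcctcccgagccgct
E2F1, chr20:33686386-33686485 (minus strand), bases 100 to 1 before the start: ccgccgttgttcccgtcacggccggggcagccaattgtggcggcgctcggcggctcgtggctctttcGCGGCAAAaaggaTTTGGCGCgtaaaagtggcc
The MCM6 stretch holds 4 matches, as a pair of overlapping matches on opposite strands that occurs at 2 places, and E2F1 itself holds 2. MCM2, CDC6, CLSPN and FEN1 had none of these letters in this window, while E2F2 and POLA2 had 1 each and MCM7 had 2. CCAAT, the box bound by NF-Y, was found in 19 of the 34 (55.9%) against 34.5% of the 15843 promoters of protein-coding genes. The CHR letters TTTGAA or TTCGAA, which the MuvB complexes of later cell cycle genes bind, were found in 1 of the 34 (2.94%) against 11.9%.

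Library totals ran from 24037007 to 37990707 counts. Levels are given as CPM, the gene's count divided by the library's total on a fixed scale, with the total corrected by TMM, a factor that sets the bulk of genes level between libraries, and 3 counts correspond to 0.079 CPM in the deepest library. Epithelial markers summed to 5730 to 10900 CPM in OVCAR-3 and 7060 to 7810 CPM in CAOV3, whereas SKOV3 had 767 to 1870 CPM, with EPCAM at 3.34 to 20.2 CPM. The ovarian marker WT1 was at 0 in 5 of 6 CAOV3 libraries and MUC16 at 0 in 4 of 6 SKOV3 libraries. Other markers of that list were present in these lines. In CAOV3, PAX8 was at 34 to 51.9, MSLN at 149 to 425 and ESR1 at 0.684 to 2.51 CPM. In SKOV3, PAX8 was at 155 to 208, ESR1 at 19.3 to 112 and MSLN at 2.19 to 22 CPM. Leukocyte markers summed to 0.166 to 5.49 CPM in OVCAR-3 and SKOV3, and to 54.3 to 111 CPM in CAOV3, where the sum was almost wholly CD14 (54.3 to 111 CPM) while PTPRC, CD3E and MS4A1 were at 0 in all 6 libraries. The OVCAR-3 libraries of GSK-J4 differed from those of GSK-J5 as a whole: mitochondrial rRNA took 0.257% to 0.415% of counts against 0.0322% to 0.0961%, and epithelial markers summed to 5730 to 9930 CPM against 10300 to 10900 CPM. The sum followed KRT8 (2310 to 4470 against 5190 to 6040 CPM) with KRT18 and KRT19, while KRT7 was at 1410 to 2030 against 641 to 1110 CPM and EPCAM at 332 to 346 against 313 to 412 CPM. In replicates 1 and 2 at 72 h, 14714 and 14680 genes reached 10 counts with GSK-J4, against 16425 to 16576 in the OVCAR-3 libraries of GSK-J5 and 16231 in replicate 3 of GSK-J4. The part of these features in the changes below was not tested.

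With GSK-J5 at 72 h the machinery was present in all 3 lines. On the scale of CPM per kilobase of exon, which allows genes to be compared, the sliding clamp PCNA was at 155 ± 7.81 in CAOV3 (SD, n = 3 libraries for each of these levels), 51.5 ± 15.6 in OVCAR-3 and 50.3 ± 23.6 in SKOV3. The helicase gene MCM7 was at 71.9 ± 7.84, 68.4 ± 11.5 and 11.9 ± 6.15 in the same order, so CAOV3 and OVCAR-3 did not differ beyond their spread and SKOV3 was lower. E2F1 was at 32.4 ± 2.51 in CAOV3, 38.1 ± 9.32 in OVCAR-3 and 16.4 ± 12.8 in SKOV3, and E2F2 at 4.52 ± 0.443, 4.34 ± 0.784 and 0.656 ± 0.452. FAM111B varied most between lines among these examples, with 14 ± 1.62 in CAOV3, 3.81 ± 1.68 in OVCAR-3 and 0.81 ± 0.998 in SKOV3. POLA2, which encodes the accessory subunit of DNA polymerase alpha, was low in each line, at 1.62 ± 0.0869, 1.1 ± 0.239 and 0.59 ± 0.348. In SKOV3 the members took 0.0757% to 0.0879% of all counts in replicates 1 and 2 and 0.159% and 0.147% in replicate 3, under GSK-J5 and GSK-J4 respectively, so in that line the levels differed more between replicates than between compounds.

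**Figure D1:**
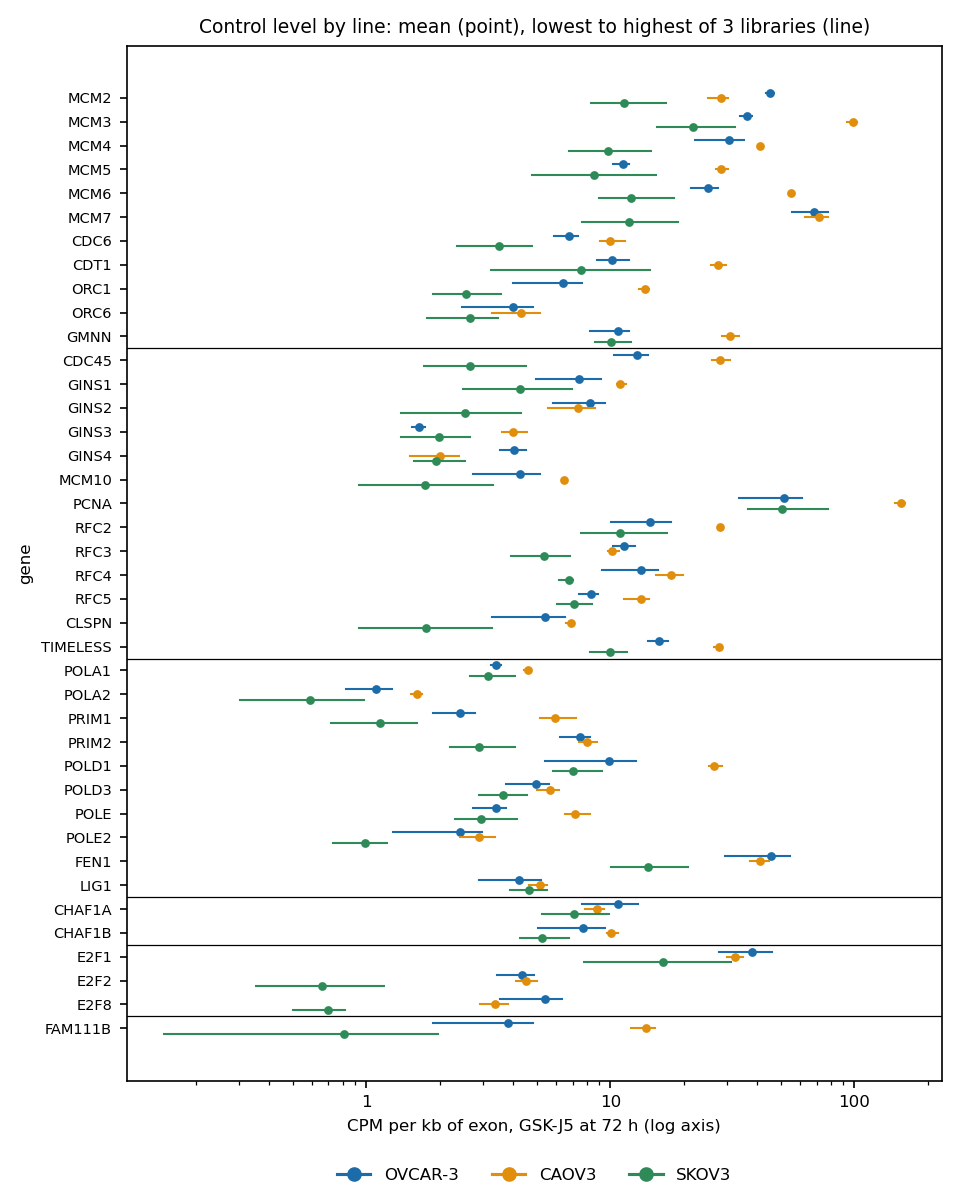
Level of each of the 40 genes with GSK-J5 at 72 h in OVCAR-3, CAOV3 and SKOV3, as CPM per kilobase of exon on a log axis; points are means and lines run from the lowest to the highest of 3 libraries. PCNA is highest in CAOV3 (155) and the SKOV3 points lie to the low side for most genes.

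In OVCAR-3 after 48 h, 23 of the 40 genes were lower with GSK-J4 and 0 were higher (edgeR quasi-likelihood test over 17402 genes, adjusted p below 0.05), against 7.63% of all genes called lower and 11.3% called higher. The median log2 change of the 40 was -1.33, and that of all genes was -0.03. As many as 39 of the 40 had both GSK-J4 libraries below both GSK-J5 libraries, which held for 42% of all genes with 2 libraries a group. The exception was RFC4, a subunit of the clamp loader, at 44.4 and 44.1 CPM with GSK-J5 and 51.6 and 41.1 CPM with GSK-J4 (log2 change 0.07, adjusted p = 0.749), and that value turned to -0.15 when libraries were scaled by total counts alone. The count, from a fit of the 10 OVCAR-3 libraries, moved with single libraries. It was 39 without either or both of the replicate 3 libraries, where 27.5% to 29.8% of all genes were called lower, and 39 in a fit of the 4 libraries of 48 h alone, where 31.2% were. It was 11 or 12 without replicate 1 or 2 of GSK-J5 at 72 h, where 2.56% or 2.9% of all genes were called lower. Leaving out 1 of the 4 libraries of 48 h left 1 library in a group, so the calls of those fits cannot be read. Over all fits that left out libraries, the median log2 change of the 40 ran from -1.38 to -1.21.

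Licensing genes at 48 h gave 7 of 11 calls, all lower, with a median log2 change of -1.39. MCM2, a subunit of the helicase ring (chromosome 3, 127598223 to 127622436, plus strand, GRCh38), stood at 197 and 203 CPM with GSK-J5 and at 84.1 and 75.3 CPM with GSK-J4. The groups lay far apart, and MCM2 fell 2.51-fold (log2 change -1.33, SE 0.221, 95% interval -1.83 to -0.82, adjusted p = 0.0176, edgeR). CDC6, the loader that is made anew in each cycle (chromosome 17, 40287633 to 40304657, plus strand), went from 48.9 and 44.2 to 19.3 and 17.4 CPM, a 2.53-fold fall (log2 change -1.34, SE 0.242, interval -1.9 to -0.79, adjusted p = 0.0195, edgeR). The largest licensing changes were those of MCM6 and MCM4, both subunits of the same ring. MCM6 fell 4.26-fold, from 117 and 120 to 30.4 and 25.1 CPM (log2 change -2.09, SE 0.519, adjusted p = 0.0351, edgeR), and MCM4 fell 3.44-fold, from 261 and 262 to 72.7 and 79.4 CPM (log2 change -1.78, SE 0.319, adjusted p = 0.0193, edgeR). MCM5, ORC1 and GMNN were the other 3 called, with log2 changes of -1.59, -1.4 and -1.56. The ring subunits did not move by one amount: MCM3 had a log2 change of -1.39 (adjusted p = 0.054) and MCM7, chosen here after its values were seen, one of -0.31 (adjusted p = 0.168), with 309 and 305 CPM under GSK-J5 and 266 and 230 CPM under GSK-J4.

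At the fork 8 of 13 genes were called lower at 48 h, with a median log2 change of -1.06. CLSPN encodes claspin, which links the fork to the checkpoint kinase. It was at 36.7 and 44.3 CPM with GSK-J5 and at 6.61 and 9.87 CPM with GSK-J4, and it fell 4.91-fold (log2 change -2.3, SE 0.619, interval -3.72 to -0.87, adjusted p = 0.0407, edgeR). PCNA (chromosome 20, 5114953 to 5126626, minus strand), which carries the E2F letters shown above, was at 92.6 and 94.1 CPM against 24.8 and 23.3 CPM, and it fell 3.88-fold (log2 change -1.96, SE 0.479, interval -3.06 to -0.85, adjusted p = 0.0343, edgeR). GINS4, a subunit of the helicase cofactor GINS, had the same log2 change of -1.96 (22 and 22.4 against 6.02 and 5.4 CPM, adjusted p = 0.0321). GINS2, GINS3, MCM10, RFC3 and RFC5 were also called, at log2 changes from -1.63 (MCM10) to -0.63 (RFC5). CDC45, GINS1, RFC2, RFC4 and TIMELESS did not pass, with log2 changes from -1.05 (GINS1) to 0.07 (RFC4).

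Among the polymerase and strand joining genes 4 of 10 were called lower at 48 h, and the median log2 change was -1.19. POLA2 was low to begin with, at 7.12 and 5.06 CPM, and was at 0.964 and 1.18 CPM with GSK-J4. It fell 5.66-fold (log2 change -2.5, SE 0.605, interval -3.89 to -1.11, adjusted p = 0.0336, edgeR). Of its exon bases, 35.1% are shared with another gene on the same strand, so part of its counts may belong to that gene. FEN1, the flap nuclease that trims Okazaki fragments, was at 136 and 141 CPM against 42.4 and 42.3 CPM and fell 3.27-fold (log2 change -1.71, SE 0.443, adjusted p = 0.0378, edgeR). POLA1 and PRIM1, of the same polymerase alpha and primase complex as POLA2, were called at log2 changes of -1.15 and -1.11. The remaining 6, PRIM2, POLD1, POLD3, POLE, POLE2 and LIG1, had log2 changes from -1.64 (POLE2, adjusted p = 0.0702) to -0.33 (PRIM2, adjusted p = 0.0937). PRIM2 has a near-identical copy in the genome, so its counts are uncertain.

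CHAF1A and CHAF1B encode the large and the middle subunit of the chromatin assembly factor that places histones on new DNA behind PCNA. CHAF1B was at 43.9 and 42 CPM against 23.3 and 22.9 CPM and fell at 48 h (log2 change -0.9, SE 0.208, adjusted p = 0.0312, edgeR). CHAF1A was at 52.1 and 48.7 CPM against 33.8 and 35.3 CPM, and its log2 change of -0.54 did not pass (adjusted p = 0.149). Here too the groups of libraries did not overlap, but the changes were smaller than those of most fork genes.

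Of the E2F factors, E2F1 and E2F8 were called lower at 48 h. E2F1 (chromosome 20, 33675683 to 33686404, minus strand) was at 89.9 and 104 CPM with GSK-J5 and at 55.7 and 55.5 CPM with GSK-J4, a 1.75-fold fall (log2 change -0.8, SE 0.195, interval -1.25 to -0.36, adjusted p = 0.0336, edgeR). E2F8 (chromosome 11, 19224063 to 19241620, minus strand) was at 28 and 27.5 CPM against 6.61 and 6.58 CPM, a 4.21-fold fall (log2 change -2.07, SE 0.526, interval -3.28 to -0.86, adjusted p = 0.0365, edgeR). E2F2 (chromosome 1, 23506430 to 23531220, minus strand) had the largest difference of the 3, from 23.8 and 25.2 to 2.89 and 3.15 CPM. Its log2 change of -3.02 (SE 0.893, interval -5.07 to -0.96) lay just outside the threshold (adjusted p = 0.0501, edgeR).

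FAM111B (chromosome 11, 59107185 to 59127410, plus strand) encodes a serine protease whose RNA peaks in S phase, and its paralog FAM111A acts at forks stalled by protein adducts. FAM111B had the largest change of the 40 at 48 h. It was at 19.3 and 21.2 CPM with GSK-J5 and at 0.516 and 0.93 CPM with GSK-J4, and it fell 27.9-fold (log2 change -4.8, SE 1.19, interval -7.54 to -2.06, adjusted p = 0.035, edgeR). The paralog, which is not one of the 40, fell as well, from a mean of 55.3 to 9.47 CPM (log2 change -2.55, adjusted p = 0.0476).

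Another 58 genes of the same pathways were followed for context, 57 of which were tested at 48 h. Of these, 13 were lower and 3 were higher, next to 7.63% and 11.3% of all genes. The largest changes were those of E2F7, the repressor paired with E2F8, at a log2 change of -3.01 (mean 18.1 to 2.23 CPM, adjusted p = 0.0443), and of FAM111A. The 3 higher genes were E2F4, E2F5 and E2F6, at log2 changes of 0.83, 1.36 and 0.76, all E2F factors with repressive roles, and they are named after their values were seen. E2F5 was at 17.6 and 16.8 CPM with GSK-J5 and at 45.9 and 42.6 CPM with GSK-J4. E2F3 did not pass (log2 change -0.38, adjusted p = 0.307).

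**Figure D2:**
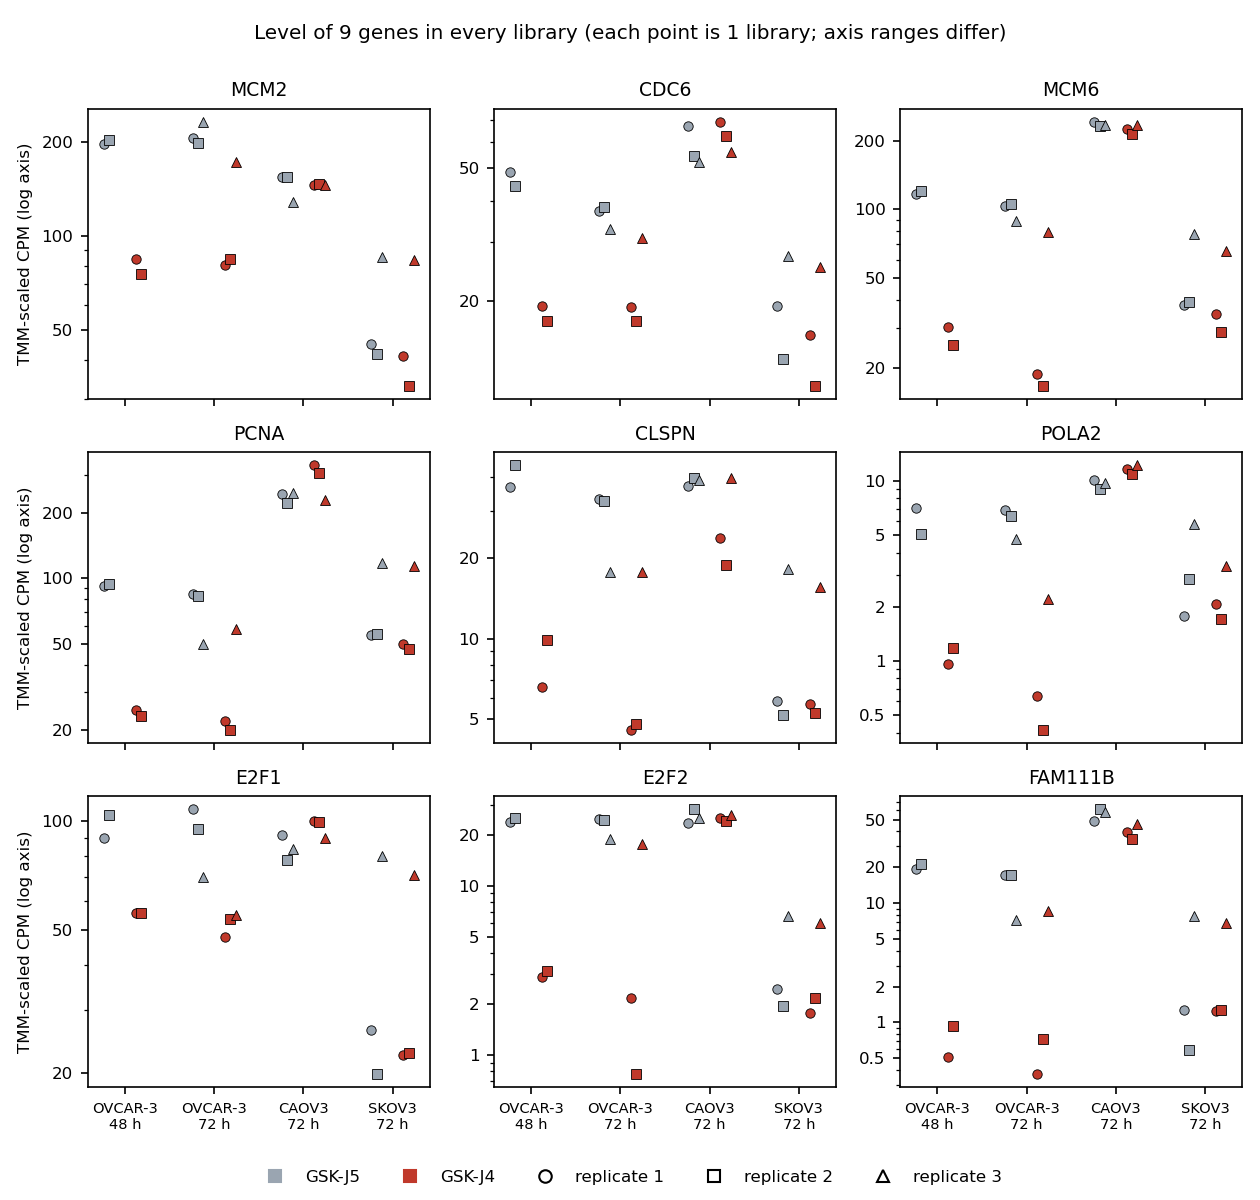
Level of 9 of the genes in all 22 libraries, as TMM-scaled CPM on a log axis, with GSK-J5 in grey, GSK-J4 in red and the replicate number as the point's shape; axis ranges differ. In OVCAR-3 the GSK-J4 circles and squares lie far below the grey ones, as for FAM111B (0.516 and 0.93 against 19.3 and 21.2 CPM at 48 h), while the replicate 3 triangles at 72 h lie close together for most of the 9 genes.

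In OVCAR-3 after 72 h most of the genes were lower with GSK-J4 in replicates 1 and 2, while replicate 3 lay near 0. For each replicate number the GSK-J4 library was set against the GSK-J5 library with the same number. The median log2 ratio of the 40 genes was -1.46 in replicate 1, -1.42 in replicate 2 and -0.05 in replicate 3, next to -1.21 and -1.36 at 48 h. Ratios under -1 were found for 29, 28 and 1 of the 40 at 72 h, against 23.6%, 24.2% and 2.33% of 13739 genes, and for 25 and 27 at 48 h, against 14.1% and 15.7%. In replicate 3, 26 genes lay below 0 and 14 above, and the ratios ran from -1.1 (POLA2) to 0.63.

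**Figure D3:**
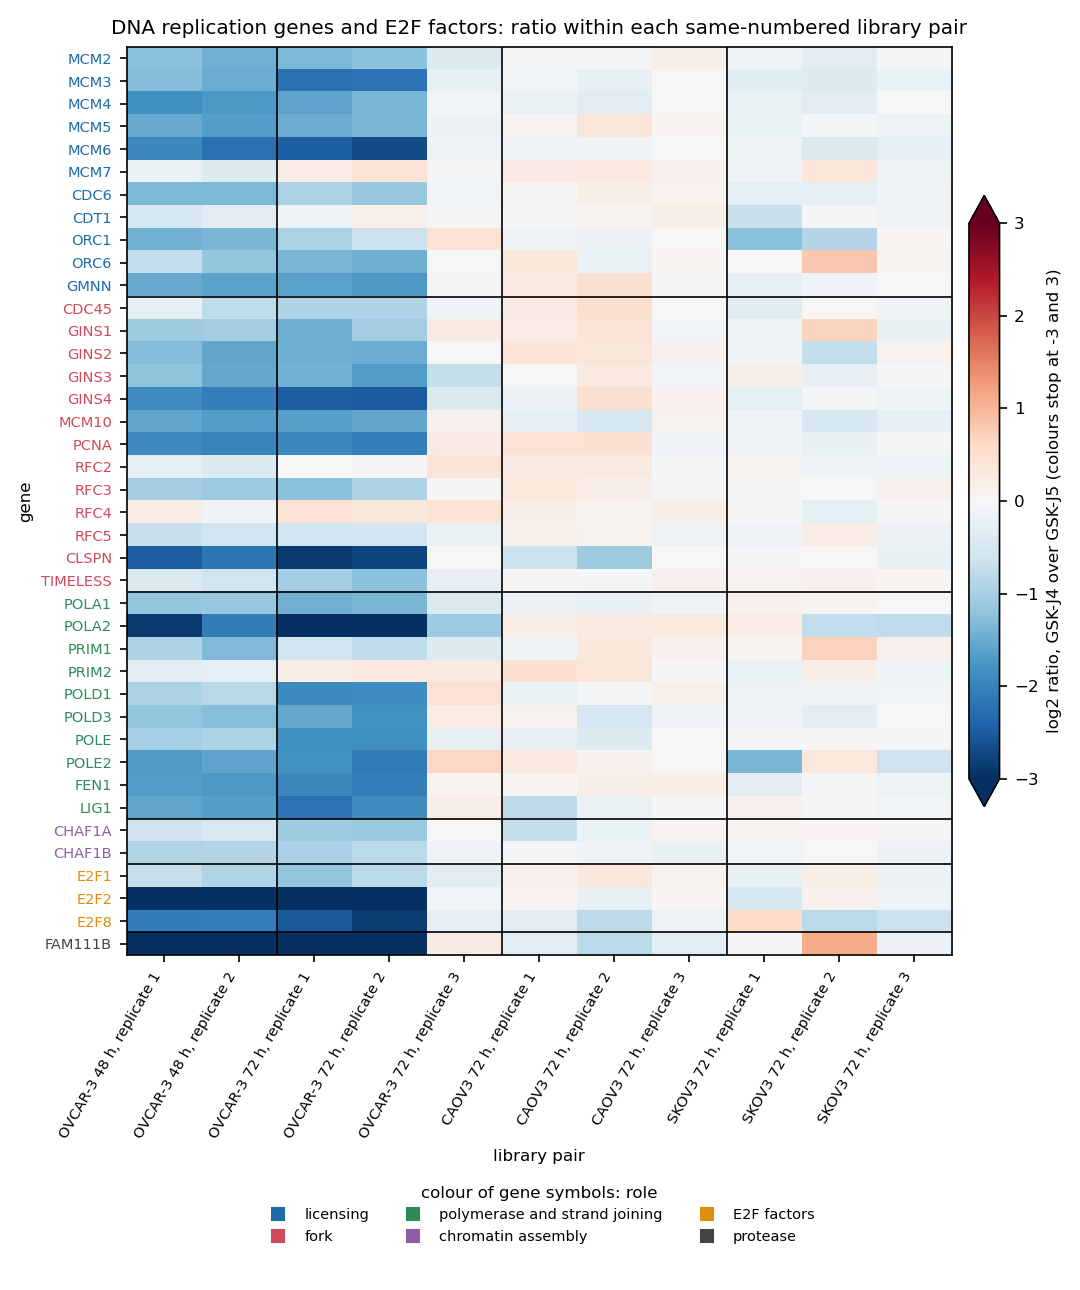
log2 ratio of GSK-J4 to GSK-J5 for the 40 genes in each of 11 pairs of libraries with the same replicate number; rows are genes ordered by role, columns are pairs, and colours stop at -3 and 3. The OVCAR-3 columns of replicates 1 and 2 are blue in most rows, whereas OVCAR-3 replicate 3 (median -0.05) is as pale as CAOV3 (medians 0.04, 0.09 and 0.01) and SKOV3 (-0.13, -0.06 and -0.11).

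With all 3 replicates, edgeR called 0 of the 40 genes at 72 h in OVCAR-3, and 0% of the 16802 genes tested were called lower. This fit held the 6 libraries of 72 h, not the 10 behind the count of 23 at 48 h. In the fit of 10 libraries, 31 were called lower at 72 h, against 20.9% of all genes. The adjusted p of the 40 ran from 0.07 to 0.875 and the median log2 change was -1.05, against -0.08 for all genes. At an unadjusted p under 0.05, 31 were lower and 1 was higher, against 21.6% and 21.5% of all genes, and DESeq2 called 29 lower, against 18.1% of the genes it tested. All 3 GSK-J4 libraries were below all 3 GSK-J5 libraries for 24 of the 40, against 17.6% of all genes. The 1 higher gene was RFC4, chosen here after its values were seen, with a log2 change of 0.37 that became -0.02 under total count scaling. MCM7, RFC2 and PRIM2 also had values above 0 that turned below 0 under that scaling, which moved the median of all genes from -0.08 to -0.47.

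The values of single genes at 72 h show where replicate 3 stood. MCM2 was at 206, 199 and 232 CPM with GSK-J5 and at 80.9, 84.2 and 173 CPM with GSK-J4 (log2 change -1.03, adjusted p = 0.07, edgeR), so the groups did not overlap but replicate 3 of GSK-J4 lay nearer to the controls than to the others of its group. CDC6 was at 37.2, 38.3 and 32.8 against 19.2, 17.4 and 30.8 CPM (log2 change -0.75, adjusted p = 0.078). Licensing genes with the largest changes were MCM6, at 103, 106 and 89.1 against 18.8, 16.6 and 79.6 CPM (log2 change -1.82, adjusted p = 0.0716), and MCM3, at 130, 125 and 125 against 27.7, 26.8 and 107 CPM (log2 change -1.6, adjusted p = 0.0701). In each of these ring genes replicate 3 of GSK-J4 lay nearer to its GSK-J5 counterpart than to replicates 1 and 2 of its own group.

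PCNA went the other way in replicate 3, with 84.4, 82.6 and 49.7 CPM under GSK-J5 and 22, 20 and 58.7 CPM under GSK-J4, so the groups overlapped (log2 change -1.3, adjusted p = 0.0987). Claspin (CLSPN) was at 33.3, 32.7 and 17.8 against 4.56, 4.8 and 17.8 CPM (log2 change -1.94, adjusted p = 0.0787), equal between compounds in replicate 3. GINS4 was at 23.1, 20.8 and 19.4 against 4.13, 3.66 and 14.4 CPM (log2 change -1.83, adjusted p = 0.07). POLA2 was the 1 member with a log2 ratio under -1 in replicate 3, with 6.87, 6.38 and 4.76 against 0.636, 0.413 and 2.21 CPM (log2 change -2.75, adjusted p = 0.07), and FEN1 was at 127, 122 and 73.3 against 33.3, 29.7 and 77.7 CPM (log2 change -1.34, adjusted p = 0.0831). CHAF1A and CHAF1B had log2 changes of -0.76 and -0.66, with adjusted p of 0.0889 and 0.0798.

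None of the 3 E2F factors had overlapping groups. E2F1 was at 108, 94.9 and 70.1 CPM with GSK-J5 and at 47.6, 53.6 and 54.9 CPM with GSK-J4 (log2 change -0.82, adjusted p = 0.07), with the 3 GSK-J4 libraries close to each other. E2F2 was at 24.8, 24.3 and 18.9 against 2.17, 0.774 and 17.7 CPM (log2 change -2.79, adjusted p = 0.0913), and E2F8 at 24.7, 24.6 and 14.8 against 4.29, 3.41 and 12.3 CPM (log2 change -1.91, adjusted p = 0.0714), and in both genes replicate 3 of GSK-J4 lay below its GSK-J5 counterpart but far above replicates 1 and 2. FAM111B was at 17.3, 17.4 and 7.29 against 0.371, 0.722 and 8.68 CPM (log2 change -3.29, adjusted p = 0.108), with the groups overlapping through replicate 3. Among the context genes the largest values were those of E2F7 (log2 change -2.74, adjusted p = 0.0841) and FAM111A (-2.6, 0.0749).

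Replicates 1 and 2 at 72 h were then fitted by themselves, as 2 libraries against 2. In that fit, as in the fits that left out either replicate 3 library, 35 of the 40 genes were lower, against 37.1% of 16281 genes, and 2 were higher, against 34.6%. The median log2 change was -1.45, against -0.09 for all genes. Called lower were 9 of 11 licensing genes, 11 of 13 fork genes, 9 of 10 polymerase and strand joining genes, both chromatin assembly genes, the 3 E2F factors and FAM111B. FAM111B fell 31.2-fold (log2 change -4.97, SE 0.255, adjusted p = 9.79e-07, edgeR), E2F2 16.6-fold (-4.05), POLA2 12.5-fold (-3.64), CLSPN 7.02-fold (-2.81) and MCM6 5.91-fold (-2.56). MCM2, CDC6 and E2F1 fell less, with log2 changes of -1.29, -1.04 and -1. MCM7 and RFC4 were the 2 higher, at log2 changes of 0.3 (adjusted p = 0.0204) and 0.4 (adjusted p = 0.0107), and both turned negative, to -0.27 and -0.17, when libraries were scaled by total counts, where 39 were lower and 0 higher. CDT1, RFC2 and PRIM2 did not pass. The context genes split differently, with 28 of 56 lower and 16 higher.

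**Figure D4:**
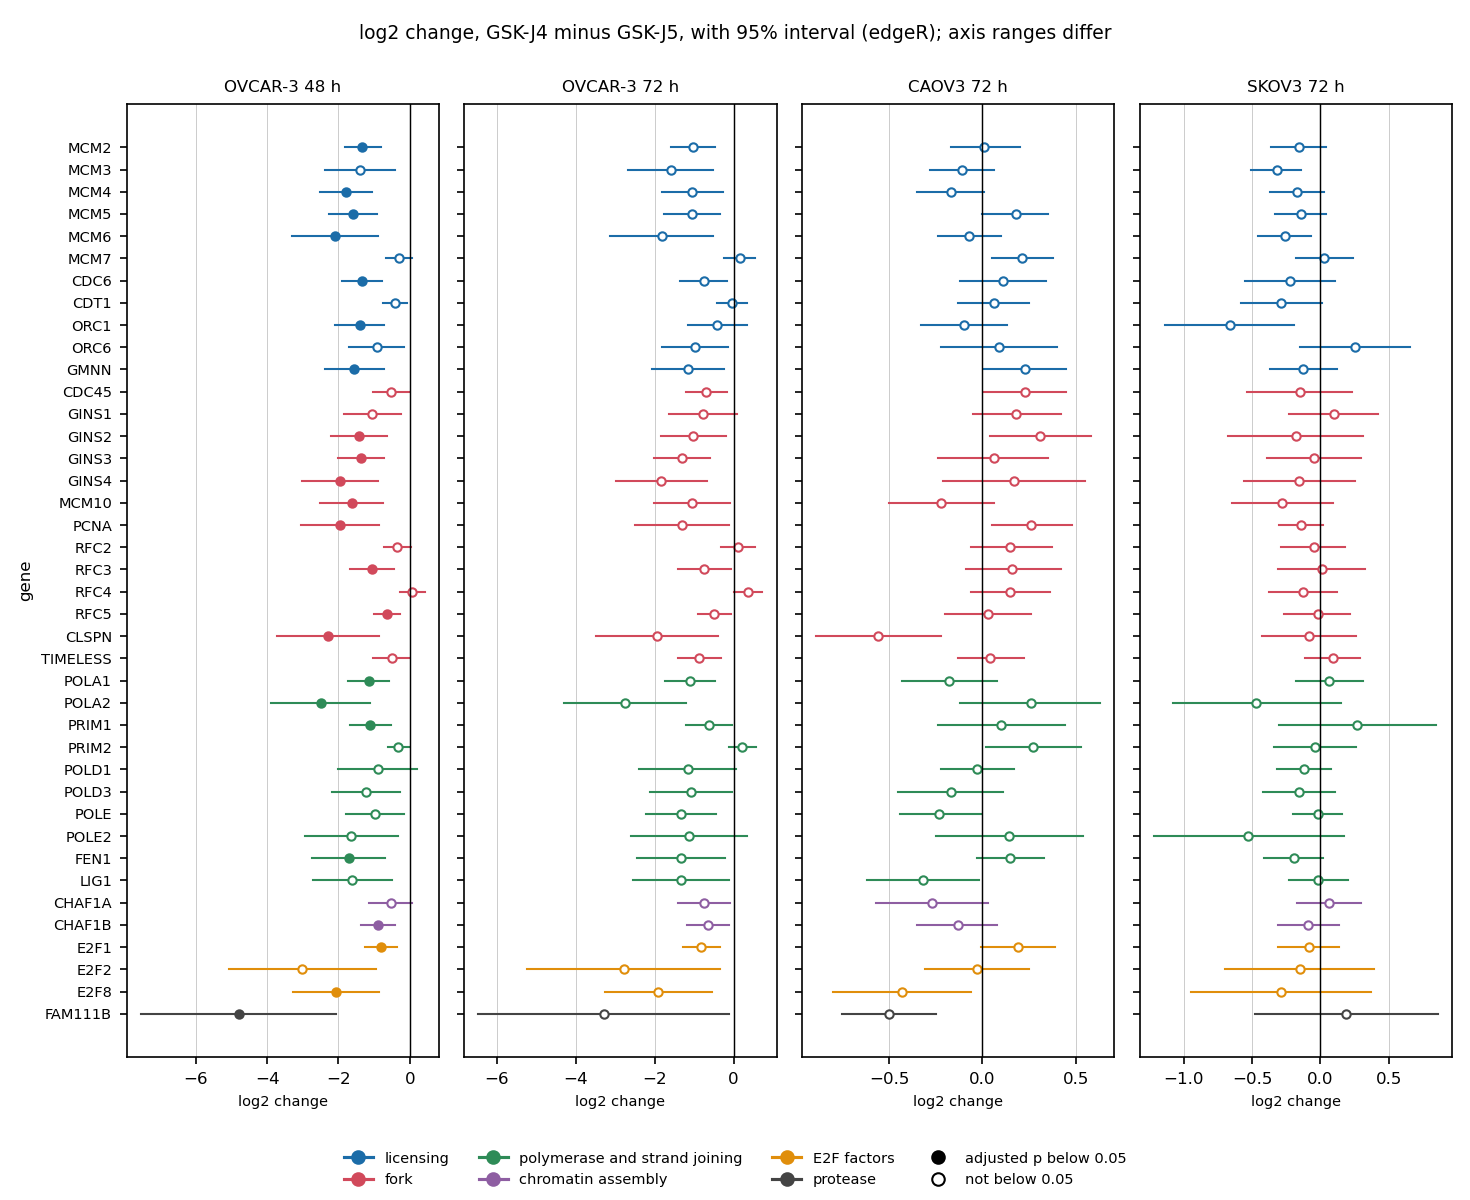
log2 change of GSK-J4 against GSK-J5 for each gene, with its 95% interval, in OVCAR-3 at 48 h and 72 h and in CAOV3 and SKOV3 at 72 h; axis ranges differ, colours give the role and filled points have an adjusted p below 0.05. The 23 filled points are all in the panel of OVCAR-3 at 48 h, and the intervals of CAOV3 and SKOV3 lie near 0.

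The change at 72 h was compared with that at 48 h in OVCAR-3 by the difference between the effects. No gene of the 40 passed (0 called, against 0.00575% of all genes; adjusted p 0.494 to 1, edgeR), and the median difference was 0.32. The differences of 32 genes were above 0, but 7 of these changed sign under total count scaling. Of all genes 52.9% lay above 0. The median turned to -0.2 without either or both of the replicate 3 libraries, so its sign rested on them. With replicates 1 and 2 alone, 7 differences were called lower and 3 higher, against 15.2% and 11.9% of all genes. For FAM111B the difference was 1.7 with an interval of -1.86 to 5.25, which allows either a larger or a smaller change at 72 h.

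In CAOV3 at 72 h the members took 0.349% to 0.371% of all counts across both compounds. Of the 40 genes 0 were called by edgeR, against 0.251% of 17137 genes called lower. The median log2 change was 0.06, and the values ran from -0.56 (CLSPN) to 0.31 (GINS2). At an unadjusted p under 0.05, 5 were lower and 6 higher, against 8.81% and 7.53% of all genes, and DESeq2 called 2 lower, against 5.01% of the genes it tested. With replicates 1 and 2 alone edgeR called 4 lower and 5 higher, against 7.38% and 6.7% of all genes. Without either replicate 3 library 6 were lower, against 7.53% or 7.61%. All 3 GSK-J4 libraries were below all 3 GSK-J5 libraries for 4 genes, FAM111B, POLA1, POLE and LIG1, against 6.83% of all genes. All 3 were above for POLA2 (log2 change 0.26), and the share of all genes in that direction was not computed. These genes are named after their values were seen.

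FAM111B had the lowest adjusted p of the 40 in CAOV3. It was at 49.2, 61.4 and 58.6 CPM with GSK-J5 and at 39.2, 34.9 and 46.1 CPM with GSK-J4 (log2 change -0.5, SE 0.118, interval -0.75 to -0.25, adjusted p = 0.0616, edgeR). CLSPN was at 37.3, 39.7 and 39.2 against 23.8, 18.9 and 39.7 CPM (log2 change -0.56, adjusted p = 0.0902), with replicate 3 of GSK-J4 inside the range of the controls. The polymerase gene with the largest value was LIG1, the ligase that seals nicks, at -0.32 (adjusted p = 0.274), followed by PRIM2 at 0.27 (adjusted p = 0.273). The licensing genes with the largest values were GMNN at 0.23 and MCM7 at 0.21 (adjusted p = 0.171).

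MCM2 in CAOV3 was at 154, 154 and 128 CPM with GSK-J5 and at 146, 147 and 146 CPM with GSK-J4, and CDC6 at 66.9, 54.4 and 52.3 against 69, 62.5 and 56.1 CPM, with log2 changes of 0.01 and 0.11. PCNA was at 244, 223 and 246 against 331, 306 and 229 CPM (log2 change 0.26, adjusted p = 0.194), higher in replicates 1 and 2 only. E2F1 was at 91.5, 78.1 and 83.6 against 100, 99.6 and 90 CPM (log2 change 0.19, adjusted p = 0.328). E2F2 was at 23.5, 28.3 and 25.2 against 25, 24.1 and 26.2 CPM, which is no shift beyond the spread, and E2F8 at 12.6, 16.4 and 14.7 against 10.1, 9.47 and 13.2 CPM (log2 changes -0.03 and -0.43). CHAF1A and CHAF1B had log2 changes of -0.27 and -0.13. Of the context genes, RNASEH2A (0.99, under 2 CPM in each group mean) and ATAD5 (-0.86) had the largest values, with adjusted p of 0.6 and 0.148.

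In SKOV3 at 72 h edgeR and DESeq2 called 0 of the 40, against 0.0177% of 16981 genes called lower by edgeR, and the adjusted p ran from 0.729 to 0.999. The median log2 change was -0.13 and that of all genes was 0. At an unadjusted p under 0.05, MCM3, MCM6 and ORC1 were lower, 3 of 40 against 1.83% of all genes. None of the 40 had all 3 GSK-J4 libraries below all 3 GSK-J5 libraries, against 1.69% of all genes. Replicate 3 stood above replicates 1 and 2 in both compounds for most genes shown, which hinders such a separation. Nothing is therefore concluded from that count. ORC1, the largest subunit of the origin recognition complex, was at 7.22, 6.07 and 11.6 CPM with GSK-J5 and at 3.06, 3.26 and 12.1 CPM with GSK-J4 (log2 change -0.66). MCM3 was at 66, 57.7 and 122 against 51.3, 43.4 and 106 CPM (log2 change -0.32, interval -0.51 to -0.14, adjusted p = 0.729), lower with GSK-J4 in each same-numbered pair. Read by same-numbered pairs, 16 of the 40 genes were lower with GSK-J4 in all 3 pairs, MCM2 to MCM6 and CDC6 among them, and 4 were higher, against 14.6% and 12.7% of 13739 genes. Whether same-numbered libraries of replicates 1 and 2 belong together is not known. The largest fork and polymerase values were those of MCM10 (-0.28), GINS2 (-0.18), POLE2 (-0.53) and POLA2 (-0.47).

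Replicate 3 of SKOV3 stood above the other 2 replicates in both compounds for most genes shown. MCM2 was at 44.9, 41.8 and 85.5 against 41.1, 33 and 83.8 CPM, CDC6 at 19.3, 13.4 and 27.2 against 15.8, 11.1 and 25.3 CPM, and PCNA at 54.7, 55.4 and 118 against 49.7, 47.3 and 114 CPM (log2 changes -0.16, -0.22 and -0.14). E2F1 was at 26.4, 19.9 and 80 against 22.5, 22.7 and 71.1 CPM and E2F2 at 2.45, 1.96 and 6.61 against 1.76, 2.17 and 6 CPM (log2 changes -0.08 and -0.15). FAM111B followed them, at 1.28, 0.582 and 7.79 against 1.24, 1.28 and 6.86 CPM (log2 change 0.19), but E2F8 did not, at 2.12, 3.46 and 3.33 against 3.19, 1.96 and 2.12 CPM (log2 change -0.29). The log2 changes of CHAF1A and CHAF1B were 0.06 and -0.09. Among context genes the largest values were CHTF8 at 1.09, which was under 1 CPM in each group mean, and POLD4 at -0.4.

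Whether the effect differed between lines was tested as the difference between the effects at 72 h in 1 fit over 20252 genes. OVCAR-3 against CAOV3 gave 17 of the 40 genes more negative in OVCAR-3 and 0 more positive, against 19.3% of all genes called in either direction and 6.63% called lower, and the median difference was -0.99 (0 for all genes). OVCAR-3 against SKOV3 gave 12 more negative and 1 more positive, against 20.8% in either direction, 7.82% lower and 13% higher, with a median of -0.89 (-0.06 for all genes). With the replicate number as a block in place of the set, the lower counts were 4 and 0, against 0.746% and 0.894% of all genes. Leaving out each library or replicate number in turn put the medians between -1.56 (without replicate 3) and -0.71 (without replicate 2) against CAOV3, and between -1.44 (without replicate 3) and -0.63 (without replicate 1) against SKOV3. These 2 comparisons share the OVCAR-3 libraries and are no independent evidence of each other. CAOV3 against SKOV3 gave 0 called by edgeR, 0 at an unadjusted p under 0.05, and 0% of all genes (adjusted p of the 40 from 0.98 to 1). Among all genes, the split of calls depended on the scaling, with 1342 lower and 2565 higher for OVCAR-3 against CAOV3 under TMM, 1770 and 2203 under DESeq2's size factors and 2837 and 1255 under total counts. For OVCAR-3 against SKOV3 it was 1584 and 2637 under TMM and 3473 and 1186 under total counts.

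By role, OVCAR-3 against CAOV3 called 5 licensing genes, 6 fork genes, 4 polymerase and strand joining genes and the factors E2F1 and E2F2. Among the called genes the 4 largest differences were those of POLA2 (-2.91, SE 0.598, interval -4.18 to -1.63, adjusted p = 0.00661), E2F2 (-2.65, SE 0.84, adjusted p = 0.0408), GINS4 (-1.96, SE 0.507, adjusted p = 0.0176) and MCM6 (-1.73, SE 0.486, adjusted p = 0.0257). E2F1 differed by -0.99 (adjusted p = 0.0104). FAM111B had a difference of -2.4 that did not pass (adjusted p = 0.112), and neither chromatin assembly gene passed. The count was 34 with replicates 1 and 2 alone, where 21.5% of all genes were called lower, and 35 without either replicate 3 library of OVCAR-3, where 20.1% or 20.2% were. It was 5 or 6 without any other 1 of the OVCAR-3 libraries, where 1.19% to 1.64% of all genes were called lower. Without any 1 of the CAOV3 libraries it was 6 to 9, where 2.11% to 3.15% were.

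OVCAR-3 against SKOV3 called 4 licensing genes, 4 fork genes, 3 polymerase and strand joining genes and E2F1 lower. Among the called genes the 4 largest differences were those of POLA2 (-2.19, SE 0.61, adjusted p = 0.0231), CLSPN (-1.82, SE 0.606, adjusted p = 0.0467), GINS4 (-1.65, SE 0.507, adjusted p = 0.0339) and MCM6 (-1.54, SE 0.488, adjusted p = 0.0392). RFC4 was the 1 gene with a more positive effect in OVCAR-3 (0.52, SE 0.161, interval 0.17 to 0.86, adjusted p = 0.0355), a call that was lost under total count scaling, where the difference was 0.11. FAM111B and E2F2 had differences of -3.08 and -2.53 with adjusted p of 0.0577 and 0.0529. E2F1 differed by -0.72 (adjusted p = 0.0381), so of the 3 E2F factors E2F1 alone passed here. The count of 12 was 34 with replicates 1 and 2 alone, where 21.9% of all genes were called lower. It was also 34 without either replicate 3 library of OVCAR-3, where 21.1% were. Without any other 1 of the OVCAR-3 libraries it was 1 to 3, where 1.28% to 2.09% were. Without 1 of 5 SKOV3 libraries (replicate 1 of GSK-J5 apart) it was 2 to 7, where 1.94% to 4.27% were. Without replicate 1 or 2 of GSK-J4 in CAOV3 it was 7, where 6.11% or 6.06% were.

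**Figure D5:**
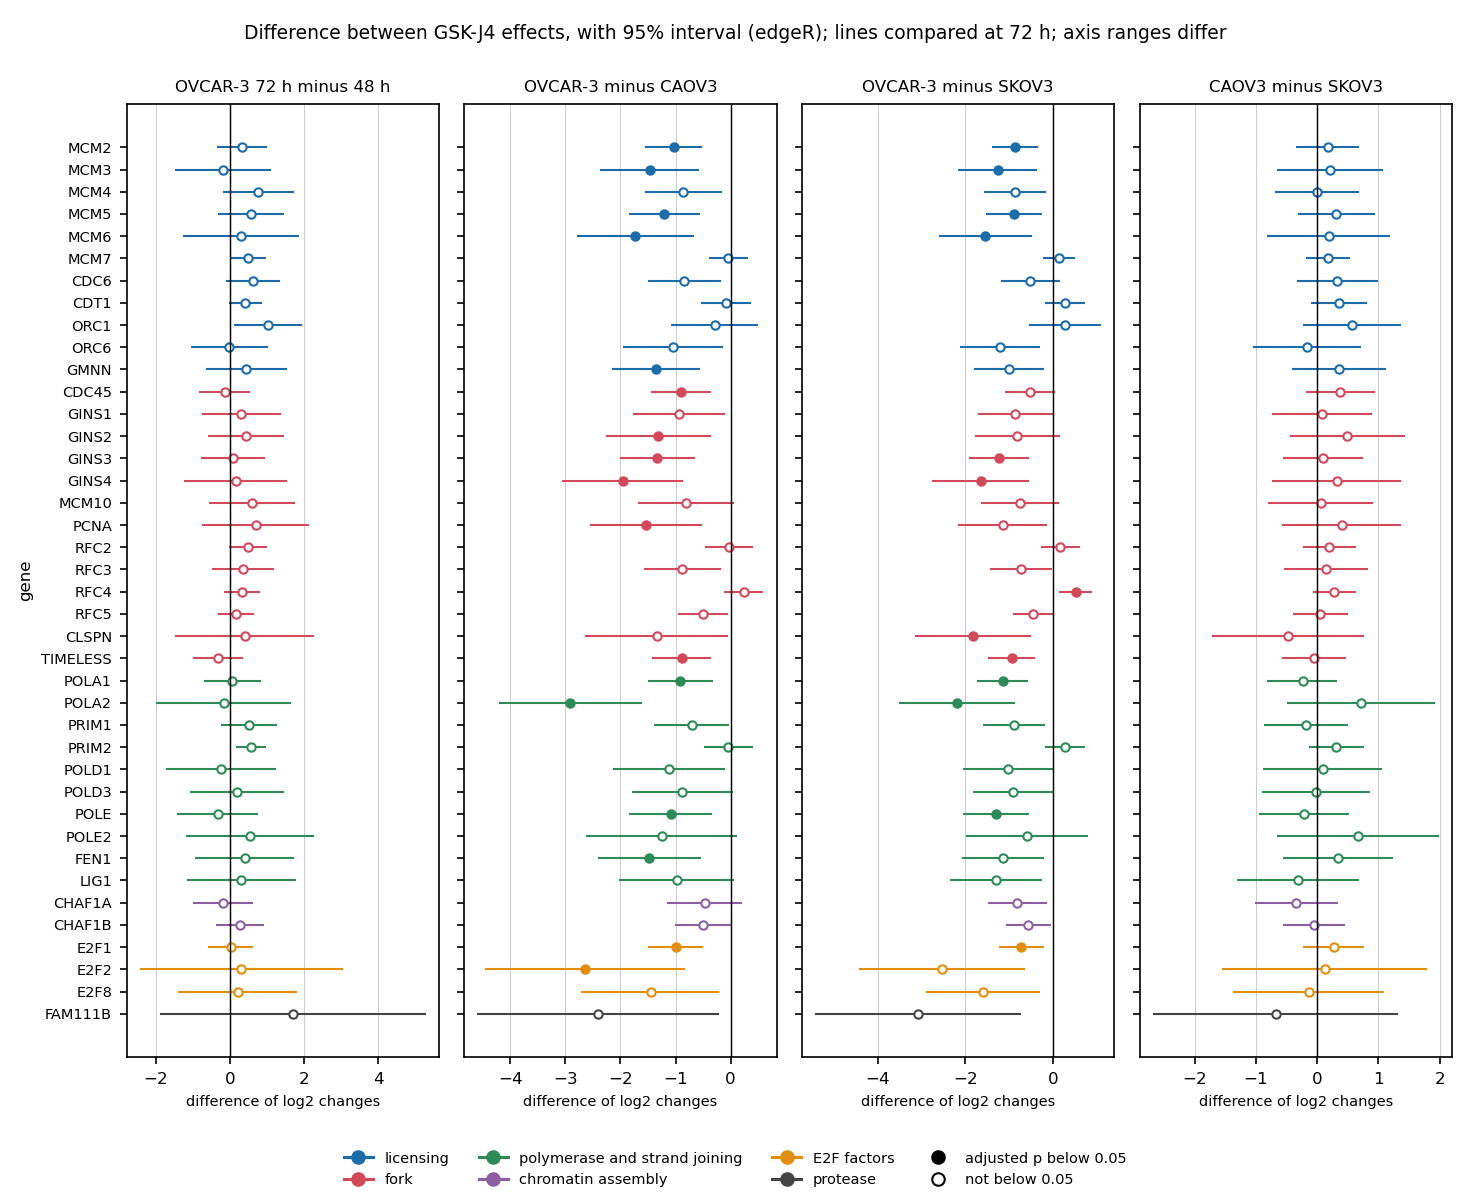
Difference between effects (log2) for each of the 40 genes with its 95% interval, as OVCAR-3 at 72 h minus 48 h, OVCAR-3 minus CAOV3, OVCAR-3 minus SKOV3 and CAOV3 minus SKOV3; filled points have an adjusted p below 0.05. Filled points are found in the 2 panels that set OVCAR-3 against another line, 17 and 13 in number, with POLA2 the most negative among them (-2.91 and -2.19).

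The 58 context genes gave 9 lower and 9 higher for OVCAR-3 against CAOV3, where 6.63% and 12.7% of all genes were called. Against SKOV3 they gave 13 lower and 8 higher, next to 7.82% and 13% of all genes. FAM111A differed by -2.27 (adjusted p = 0.0388) and -2.49 (adjusted p = 0.0264), and E2F7 by -2.52 against SKOV3 (adjusted p = 0.0388). The retinoblastoma gene RB1, whose product holds E2F factors in check, was at 0 in 5 of 6 CAOV3 libraries, so no difference is given for it there.

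The promoters shown above can be set beside these changes as a description. The 13 genes with an E2F match had a median log2 change of -1.39 at 48 h in OVCAR-3, and the 21 without one a median of -1.05. At 72 h the medians were -1.3 and -0.78 in OVCAR-3, 0.06 and 0.09 in CAOV3, and -0.14 and -0.09 in SKOV3. MCM4, MCM5, GINS4, POLD3, E2F8 and FAM111B had no promoter entry and are in neither set. Their log2 changes at 48 h in OVCAR-3 ran from -4.8 (FAM111B) to -1.23 (POLD3). MCM6, with 4 matches, was among the licensing genes that changed most, whereas MCM7, with 2, had a log2 change of -0.31 at 48 h and MCM2, with none, one of -1.33. Counting could blur a few of the values: 17 of the 40 genes share exon bases with another gene, 6 of them on the same strand, and the shared part passes 10% in MCM2 (23.6%), GINS3 (10.9%), GINS4 (23.6%), RFC5 (10.6%), POLA2 (35.1%) and PRIM1 (21.6%).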

How the data were processed

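RNA-seq libraries of 3 ovarian cancer cell lines treated with GSK-J4 or GSK-J5 were analysed from raw counts per gene as deposited by the authors, in 22 columns that belong to 14 labelled samples. STAR, DESeq2 and the builds GRCh38 and hg38 are named per the submitters' processing notes; which program counted the reads, whether it used strand, and with which annotation, is not given in the sources used here. A column whose header reads 73 was taken as replicate 3 of GSK-J4 at 72 h, as its name also gives line and compound and no other sample of that compound in OVCAR-3 lacked a column. Nothing in the labels says that replicates came from separate cultures, so a p-value here reflects spread among libraries that may be technical.

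Genes were filtered with filterByExpr (minimum count 10), scaled by TMM and tested with the quasi-likelihood test of edgeR 4.0.16 in R 4.3.3, with the library set (replicates 1 and 2, or replicate 3) as a covariate and Benjamini-Hochberg adjustment over all genes tested at a threshold of 0.05. The 48 h effect and its difference from 72 h came from the 10 OVCAR-3 libraries, each 72 h effect from the 6 libraries of its line, and differences between lines from the 18 libraries of 72 h. Alternatives were DESeq2 1.42.0, limma 3.58.1 (voom), other scalings, no filter, no set term, the replicate number as a block, other sets of libraries, and each library left out in turn. Intervals are at 95%. For same-numbered log2 ratios, 0.5 was added to each count before scaling. Exonic lengths and coordinates came from GENCODE 29 on GRCh38, and promoters from RefSeq on GRCh38.p14. Scripts were tested on simulated data.

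The members and lists were chosen with earlier results of these data known. Full values were given for MCM2, CDC6, PCNA, E2F1, E2F2, E2F8, FAM111B, CHAF1A and CHAF1B, for the 2 licensing, fork and polymerase genes with the largest absolute log2 change in each comparison, for all members called in a difference between effects (the 4 largest where more than 5 were called), and for the 2 context genes with the largest change. Same-numbered libraries deviated together in SKOV3 (correlations 0.369, 0.39 and 0.761 over genes, in 3 pairs). In the 72 h libraries of OVCAR-3 (-0.0594 to 0.0155) and CAOV3 (0.0222 to 0.267) they did not do so in every pair. Deviations were taken from the mean of each compound, so a shift of replicate 3 common to both compounds also gives such correlations. The check therefore cannot tell pairing from the library set, and no pairing is concluded from it. No 2 libraries were duplicates.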

Additional observations from a re-analysis of the deposited data

Results flagged for a closer look

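The effect of GSK-J4 against GSK-J5 at 72 h differed between lines by the test of the difference itself (edgeR interaction). OVCAR-3 against CAOV3 gave 17 of the 40 genes with a more negative effect in OVCAR-3. Of all genes, 6.63% were called lower there and 19.3% in either direction. Among the 17 were POLA2 (-2.91), E2F2 (-2.65), GINS4 (-1.96) and MCM6 (-1.73). OVCAR-3 against SKOV3 gave 12 with a more negative effect, among them POLA2 (-2.19), CLSPN (-1.82), GINS4 (-1.65) and MCM6 (-1.54), and 1 with a more positive effect, the clamp loader gene RFC4 (0.52). Here 7.82% of all genes were called lower, 13% higher and 20.8% in either direction. With the replicate block the 17 became 4 and the 12 became 0, against 0.746% and 0.894% of all genes called lower. Without replicate number 1 or 2, 0% of all genes were called lower in either difference. In its own fit, OVCAR-3 at 72 h had 0 of the 40 called, against 0% of all genes called lower. The median log2 ratio of the 40 in replicate 3 was -0.05 in OVCAR-3, 0.01 in CAOV3 and -0.11 in SKOV3. The call for RFC4 was lost with total counts. The replicate 3 libraries of OVCAR-3, the share of mitochondrial rRNA (0.257% to 0.415% with GSK-J4 against 0.0322% to 0.0961% with GSK-J5 in OVCAR-3) and the number of genes detected move with these differences, and their part was not tested. No group held 4 or more libraries, so no single library was tested as an outlier.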

How the results depend on the processing

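Among the genes given full values, which were followed under every alternative, no called value reversed. Other called genes were compared under the other scalings only. There MCM7 (0.3 to -0.27) and RFC4 (0.4 to -0.17) reversed in the fit of replicates 1 and 2 at 72 h in OVCAR-3 when scaled by total counts. The count of lower genes in OVCAR-3 at 48 h (23) was 6 with no set term, 4 with the replicate block, 39 in a fit of the 4 libraries of 48 h, and 0 to 39 leaving out libraries. The share of all genes called lower (7.63%) was 1.13%, 0.741%, 31.2%, and 0% to 29.8%, in the same order. At 72 h in OVCAR-3 the 0 lower became 2 with no filter, 29 with DESeq2, 35 with replicates 1 and 2 alone, 31 in a fit of 10 libraries and 33 in a fit of 18 (0 to 35 leaving out libraries). The shares of all genes called lower were 1.15%, 18.1%, 37.1%, 20.9% and 17.4% in the same order. The 0 higher became 2, 1 and 1 in the last 3 fits (0 to 2), against 34.6%, 22.9% and 20.3% of all genes. In CAOV3 the 0 lower became 2 with no filter, 2 with DESeq2, 1 with limma voom and 4 with replicates 1 and 2 alone (0 to 6), and the 0 higher became 5 in the last (0 to 5). The shares of all genes called lower were 2.19%, 5.01%, 1.65% and 7.38%, and 6.7% were called higher in the last. The count with DESeq2 lay at its share of all genes. In SKOV3 the count stayed 0 under every alternative, the replicate block included. For 72 h minus 48 h the 0 lower and 0 higher became 7 and 3 with replicates 1 and 2 alone (0 to 7 and 0 to 3), and 1 was higher with DESeq2. Of all genes 15.2% were called lower and 11.9% higher with those replicates, and 0.75% higher with DESeq2. For OVCAR-3 minus CAOV3 the 17 lower became 28 with no filter, 29 with DESeq2, 1 with no set term, 4 with the replicate block and 34 with replicates 1 and 2 alone (0 to 35). The share of all genes called lower (6.63%) was 6.3%, 16%, 0.285%, 0.746% and 21.5% in the same order. For OVCAR-3 minus SKOV3 the 12 lower became 28 with total counts, 25 with no filter, 26 with DESeq2, 5 with limma voom, 0 with no set term, 0 with the replicate block and 34 with replicates 1 and 2 alone (0 to 34). The share of all genes called lower (7.82%) was 17.1%, 6.97%, 18.1%, 4.12%, 0.498%, 0.894% and 21.9% in the same order. There the 1 higher became 0 with total counts, no filter, no set term or the replicate block (0 to 1). Of all genes 5.86%, 7.36%, 3.64% and 5.5% were called higher in these 4 alternatives, against 13% in the main fit. For CAOV3 minus SKOV3 the 0 higher became 2 with replicates 1 and 2 alone (0 to 2), against 0.697% of all genes. The cause of these moves was not tested.

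The limits are few libraries per group, a second set of libraries that differs in medium, kit and library preparation together, unknown strand in the counting, and replicates not stated to be separate cultures. Low genes such as POLA2 and FAM111B rest on few counts with GSK-J4. Where libraries were scaled by total counts, the median of all genes moved from -0.03 to -0.24 at 48 h and from -0.08 to -0.47 at 72 h in OVCAR-3. That scaling of the fit of replicates 1 and 2 was added after seeing the data.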
